A study of Homo sapiens with 9 samples.

Results

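The genes ASNS, PHGDH, PSAT1, SLC7A5 and SLC7A11, which serve amino acid synthesis and transport, were followed through endoplasmic reticulum (ER) stress in the human neuroblastoma line SH-SY5Y. They were chosen by probe identifier as known targets of the transcription factor ATF4, with earlier results of these data known, and all 5 probes were found among the 22184 on the array, which covered 16578 named genes. Cells received the vehicle DMSO, thapsigargin or tunicamycin. Thapsigargin blocks the calcium pump that fills the ER, and tunicamycin blocks the attachment of N-linked sugars to proteins in the ER. Total RNA was labelled with biotin and hybridised to 1-colour Illumina bead arrays, with 3 replicates deposited for each treatment. Neither dose nor length of treatment is given in the sources used here, and no label says whether the replicates were separate cultures. The p-values therefore reflect array-to-array spread alone, which may be technical.

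Proteins that misfold in the ER activate the kinase PERK, which phosphorylates the translation factor eIF2alpha and lowers protein synthesis in general while raising translation of the ATF4 messenger RNA. ATF4 then switches on genes that make, import and charge amino acids, the same programme that amino acid shortage starts through the kinase GCN2. In some neuroblastoma cells serine synthesis is a known support of growth, and cystine import feeds the antioxidant glutathione.

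Only some of the 9 deposited signal columns were independent arrays. The 5 single arrays were DMSO replicate 1, thapsigargin replicates 1 and 3 and tunicamycin replicates 1 and 2. Of the other columns, 2 were the mean of the other columns of their group, and 2 were weighted means that each held 1 further array. The levels below are log2 intensities of the 5 single arrays after background correction and quantile normalisation, and the further arrays, recovered by subtraction, are given beside them. The array recovered from DMSO replicate 3 lay close to DMSO replicate 1, with a standard deviation of 0.135 over the log2 differences of 12620 probes. The array recovered from tunicamycin replicate 3 went against its label: it lay 0.176 from DMSO replicate 1, but 0.494 and 0.485 from the other tunicamycin arrays. Between 12494 and 12737 probes per single array were detected (detection p below 0.05, from the p-value column that followed the array's probe order). That column did not always carry the array's own label. For DMSO replicate 1 it was deposited under DMSO replicate 2, and for thapsigargin replicate 1 under thapsigargin replicate 2. The p-value column under DMSO replicate 1 followed the probe order of tunicamycin replicate 2, as did that replicate's own column. How the labels came to cross was not tested. Of 7 probes for markers of the noradrenergic neuroblast, 6 were detected on all 5 arrays (CHGA, DBH, GATA3, ISL1, PHOX2A and TH) and HAND2 on none. Of 9 probes for other cell types, 4 were detected on none of the arrays (ALB, CD3E and 2 of 3 PTPRC probes), and COL1A1, of fibroblasts, was detected on all 5. The rest were detected on some arrays only. Of the 9, 2 were detected on the DMSO array, 3 and 5 on thapsigargin replicates 1 and 3, and 2 and 3 on tunicamycin replicates 1 and 2.

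Of the 5 genes, 4 were expressed above background, and all 4 rose with both drugs. ASNS and SLC7A5 rose 4.45-fold to 5.89-fold, PHGDH 2.73-fold to 2.77-fold, and PSAT1 2.00-fold and 2.47-fold. SLC7A11 was not above background on any array. With limma's moderated test and Benjamini-Hochberg adjustment over 12989 tested probes, 4 of 4 tested genes were higher with thapsigargin, where 12.2% of all tested probes were, and 4 of 4 were higher with tunicamycin, where 17.2% were. The median log2 change of the 4 was 1.81 with thapsigargin and 1.82 with tunicamycin, against -0.0028 and -0.0110 over all tested probes. The filter did not favour the treated groups for these genes, since each was detected on all 5 arrays, DMSO included. The treatments shared 1 DMSO array, so their changes are not independent of each other. In RNA from whole cultures, fewer cells of a kind and less RNA per cell cannot be told apart.

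**Figure D1:**
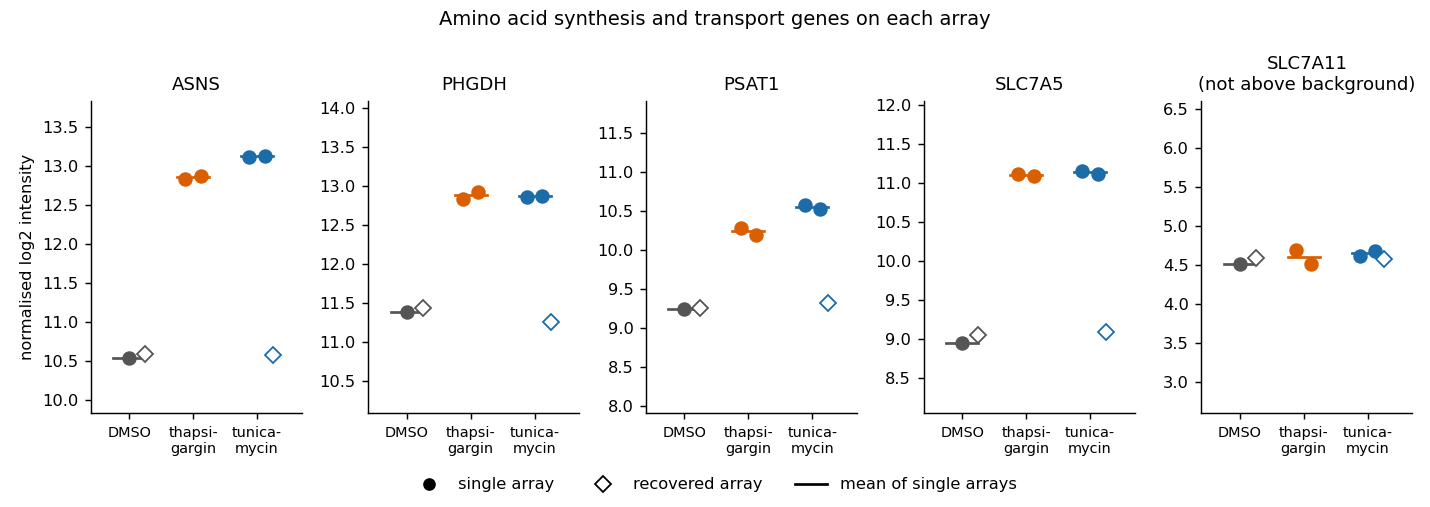
Normalised log2 intensity of the 5 genes on each array (normalised over 7 arrays), with filled circles for single arrays, open diamonds for the 2 recovered arrays and lines for the mean of the single arrays; every panel spans the same log2 range. In 4 panels the filled thapsigargin and tunicamycin points stand above DMSO and the recovered tunicamycin array lies at the DMSO level, and SLC7A11 stays near 4.5 to 4.7 on every array.

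ASNS (probe ILMN_1796417, NM_133436) encodes asparagine synthetase, which makes asparagine from aspartate with glutamine as the nitrogen donor. Its log2 level was 10.51 on the DMSO array, 12.76 and 12.80 on the thapsigargin arrays, and 13.06 and 13.07 on the tunicamycin arrays. The 4 treated arrays stood well above DMSO, and the tunicamycin arrays stood above both thapsigargin arrays without overlap. The change with thapsigargin was 2.27 on the log2 scale (SE 0.088; 95% interval 2.07 to 2.48; limma adjusted p = 1.57e-05), a 4.83-fold rise and the 16th largest among the tested probes. With tunicamycin it was 2.56 (95% interval 2.35 to 2.77; limma adjusted p = 5.59e-06), or 5.89-fold and the 22nd largest.

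The ASNS promoter is the textbook site of amino acid response, so it is shown here from RefSeq (GRCh38.p14, chr7:97872359-97872658, minus strand), running from 250 bases before the annotated start to 50 after it. Capitals mark TGATGNAA, the core of the C/EBP-ATF response element to which ATF4 binds together with a C/EBP protein.
ASNS: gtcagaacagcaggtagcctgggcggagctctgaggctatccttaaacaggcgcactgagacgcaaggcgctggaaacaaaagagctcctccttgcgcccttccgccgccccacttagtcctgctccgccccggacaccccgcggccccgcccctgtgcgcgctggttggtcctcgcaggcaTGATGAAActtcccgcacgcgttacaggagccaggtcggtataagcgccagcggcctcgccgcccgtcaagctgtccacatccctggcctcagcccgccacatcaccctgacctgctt
The core lies at positions -68 to -61, counted with the start base as 0, on the strand of the gene. A second listed start of ASNS, further downstream, has no core in its own window.

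PHGDH and PSAT1 catalyse the first and the second step of serine synthesis from the glycolytic intermediate 3-phosphoglycerate. PHGDH (ILMN_1704537, NM_006623) had a log2 level of 11.34 on the DMSO array, 12.77 and 12.87 on the thapsigargin arrays, and 12.79 and 12.80 on the tunicamycin arrays. The treated arrays all stood above DMSO, and those of the 2 drugs overlapped. PHGDH rose by 1.47 with thapsigargin on the log2 scale (SE 0.093; 95% interval 1.25 to 1.69; limma adjusted p = 0.000115) and by 1.45 with tunicamycin (95% interval 1.23 to 1.67; limma adjusted p = 5.48e-05).

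PSAT1 (ILMN_1692938, NM_021154), phosphoserine aminotransferase, had a log2 level of 9.22 on the DMSO array, 10.26 and 10.17 on the thapsigargin arrays, and 10.55 and 10.50 on the tunicamycin arrays. The 3 treatments formed 3 separate levels, with DMSO the lowest and tunicamycin the highest. PSAT1 rose by 1.00 with thapsigargin (SE 0.093; 95% interval 0.78 to 1.22; limma adjusted p = 0.000493) and by 1.31 with tunicamycin (95% interval 1.09 to 1.52; limma adjusted p = 9.04e-05), the smallest rises among the 4 expressed genes. A second PSAT1 probe (ILMN_1712563), designed to another transcript record (NM_058179), was below background on every array and gave no measure of change.

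SLC7A5 (ILMN_1720373, NM_003486) encodes LAT1, which exchanges intracellular glutamine for leucine and other large neutral amino acids. Its log2 level was 8.92 on the DMSO array, 11.09 and 11.07 on the thapsigargin arrays, and 11.12 and 11.09 on the tunicamycin arrays. The 4 treated arrays lay close together, with the drugs touching, and all far above DMSO. SLC7A5 rose by 2.16 with thapsigargin (SE 0.088; 95% interval 1.95 to 2.36; limma adjusted p = 2.00e-05), or 4.45-fold, and by 2.18 with tunicamycin (95% interval 1.98 to 2.39; limma adjusted p = 1.05e-05), or 4.54-fold. These were the 19th and the 41st largest rises among the tested probes.

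SLC7A11 (ILMN_1655229, NM_014331) encodes xCT, which imports cystine in exchange for glutamate. Its log2 level was 4.50 on the DMSO array, 4.68 and 4.50 on the thapsigargin arrays, and 4.60 and 4.67 on the tunicamycin arrays. The detection p ran from 0.380 to 0.944 over these 5 arrays, so the probe was not above background in any group and was not tested. No fold is given, since both sides of each comparison lay at background.

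The recovered arrays bear directly on these levels. The array recovered from DMSO replicate 3 differed from DMSO replicate 1 by 0.02 to 0.10 on the log2 scale at the 4 expressed genes, far less than any treated array. The array recovered from tunicamycin replicate 3 differed from DMSO replicate 1 by 0.04 for ASNS, -0.13 for PHGDH, 0.09 for PSAT1 and 0.14 for SLC7A5. It thus lay near DMSO for all 4 genes and far below the other tunicamycin arrays. When both recovered arrays were added, giving 7 arrays, none of the 4 genes passed the threshold in any comparison. The log2 changes with thapsigargin were then 2.29, 1.47, 0.99 and 2.11 for ASNS, PHGDH, PSAT1 and SLC7A5, with limma adjusted p from 0.186 to 0.218. Those with tunicamycin were 1.71, 0.92, 0.90 and 1.45, with limma adjusted p from 0.310 to 0.324. All groups shared 1 estimate of spread in these fits. The SE of the ASNS change with thapsigargin was 0.801 with 7 arrays, against 0.088 with the 5 single arrays. With the recovered DMSO array alone added, giving 6 arrays, all 4 genes stayed past the threshold for both drugs. They also passed in the fits of 4 arrays, which held both DMSO arrays and the single arrays of 1 drug. The median log2 change was then 1.79 with thapsigargin and 1.80 with tunicamycin.

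**Figure D2:**
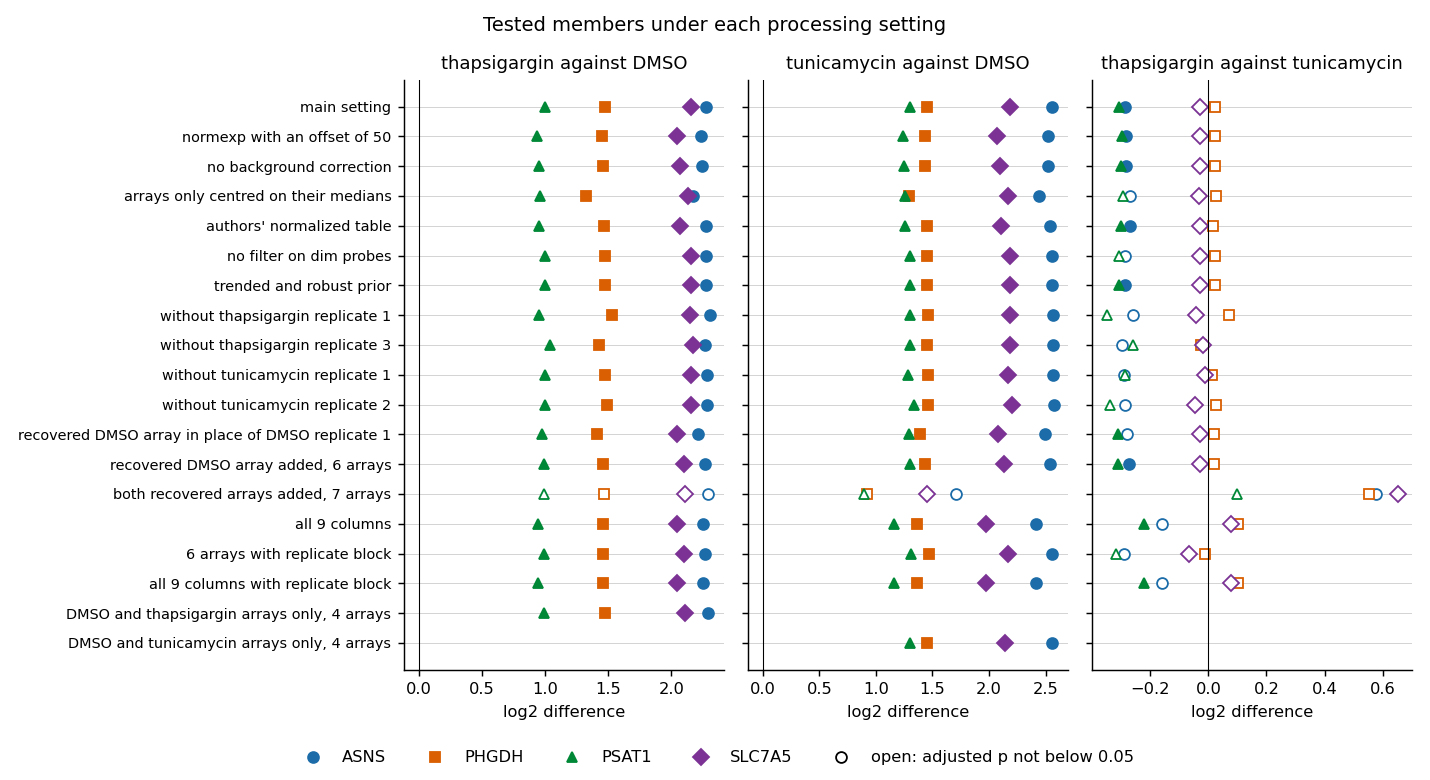
Log2 difference of the 4 expressed genes under each processing setting (rows) in the 3 comparisons (panels), with filled symbols where the limma adjusted p was below 0.05 and open symbols where it was not. The changes against DMSO stay filled in every setting except the 7 arrays, whereas the differences between the drugs lose their filled symbols in many settings and reach 0.65 with 7 arrays.

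Blocking the calcium pump was then compared with blocking glycosylation. PSAT1 and ASNS rose less with thapsigargin than with tunicamycin, while PHGDH and SLC7A5 did not pass the test. The log2 difference, thapsigargin minus tunicamycin, was -0.29 for ASNS (SE 0.072; 95% interval -0.45 to -0.12; limma adjusted p = 0.0491), a 1.22-fold lower level. For PSAT1 it was -0.31 (SE 0.076; 95% interval -0.49 to -0.13; limma adjusted p = 0.0463), a 1.24-fold lower level. Both adjusted p-values lay just below 0.05, and neither gene passed when any 1 treated array was left out. The difference then ranged from -0.26 to -0.30 for ASNS (limma adjusted p from 0.146 to 0.174) and from -0.26 to -0.35 for PSAT1 (limma adjusted p from 0.105 to 0.195). For PHGDH the difference was 0.02 (95% interval -0.16 to 0.20; limma adjusted p = 0.886) and for SLC7A5 it was -0.03 (95% interval -0.20 to 0.14; limma adjusted p = 0.842). Of the 4 genes, 2 were lower with thapsigargin, where 5.64% of all tested probes were, and none was higher, where 4.67% were.

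The other genes of the same pathways were counted from lists of known ATF4 and ER stress genes. Counts and medians are over probes detected on all 5 arrays. A probe below background on the DMSO array could be tested only through a treated group and has only a lower bound. Over all tested probes, which include such probes, 12.2% rose with thapsigargin and 17.2% with tunicamycin, and 13.3% and 18.8% fell. No share was taken over the probes detected on all 5 arrays alone. Among 6 probes for further serine and one-carbon genes, 4 rose with each drug and 1 fell. MTHFD2 and MTHFD1L, mitochondrial enzymes of the folate cycle, rose by 2.03 and 1.75 with thapsigargin and by 2.40 and 1.96 with tunicamycin on the log2 scale. SHMT2, which turns serine into glycine in mitochondria, rose by 1.36 and 1.48. The probe that fell (ILMN_1811933) belongs to SHMT1, the cytosolic form of that enzyme, with log2 changes of -0.38 and -0.29, and a second SHMT1 probe did not pass the test with either drug. The fall at ILMN_1811933 with thapsigargin was lost without thapsigargin replicate 1 or replicate 3, and that with tunicamycin without any 1 of the 4 treated arrays, leaving 0 probes of this list lower. PSPH, which completes serine synthesis after PHGDH and PSAT1, rose by 0.63 and 0.75. The list's median log2 change was 1.00 with thapsigargin and 1.11 with tunicamycin.

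Of 10 probes for other amino acid synthesis genes, 5 were detected on all 5 arrays and 4 of these rose with each drug. PYCR1, which makes proline, rose by 1.39 and 1.32 at one probe (ILMN_1796013) and by 1.00 and 0.97 at the other (ILMN_1715178). CTH, which makes cysteine from cystathionine, rose by 0.57 with thapsigargin and by 1.04 with tunicamycin at probe ILMN_1784112. A second CTH probe (ILMN_1777060) was below background on the DMSO array. CBS, the enzyme just before CTH, did not pass the test. With normexp, all 6 tested probes of this list, CBS included, rose with thapsigargin and 5 rose with tunicamycin. With the recovered DMSO array added, all 6 rose with each drug. Another 4 probes, for ASS1 and GLUL, were below background on all 5 arrays.

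Amino acid transporters rose as a majority, with 8 of 10 tested probes higher with each drug and none lower, and a median log2 change of 0.84 with thapsigargin and 1.05 with tunicamycin. SLC3A2, the heavy chain that carries LAT1 and xCT to the cell surface, was measured by 2 probes. Its log2 level at probe ILMN_1679041 rose by 2.14 with thapsigargin and by 3.21 with tunicamycin, and at probe ILMN_1726456 by 1.48 and 2.19. SLC3A2 was lower with thapsigargin than with tunicamycin at both probes, with log2 differences of -1.07 (limma adjusted p = 0.000666) and -0.71 (limma adjusted p = 0.00817). The second of these missed the threshold without thapsigargin replicate 1 (-0.62, limma adjusted p = 0.0685) and without thapsigargin replicate 3 (-0.79, limma adjusted p = 0.0558). SLC6A9, a glycine transporter, rose by 2.34 and 2.60. SLC38A2 and SLC7A6 did not pass the test with either drug.

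Of 11 probes for aminoacyl-tRNA synthetases, which charge tRNAs with amino acids, 10 rose with each drug. WARS1, AARS1 and SARS1, for tryptophan, alanine and serine, rose by 2.19, 1.81 and 1.64 with thapsigargin and by 2.57, 2.17 and 1.73 with tunicamycin. LARS1, for leucine, changed by 0.24 with each drug and did not pass the test, and CARS1, for cysteine, was below background on the DMSO array. The non-call of LARS1 depended on the processing. With normexp, and with the recovered DMSO array added, all 12 tested probes of this list rose with each drug. ATF4 and its partners and regulators rose at 9 of 10 probes with each drug. A further 3 probes, for CHAC1, SESN2 and NUPR1, were below background on the DMSO array. The stress transcription factors DDIT3 (CHOP) and CEBPB rose by 3.55 and 3.48 with thapsigargin and by 4.72 and 3.74 with tunicamycin, and TRIB3, a pseudokinase that restrains ATF4, by 2.44 and 2.96. The 2 ATF4 probes disagreed: ILMN_1672128 rose by 1.51 and 1.47, whereas ILMN_1688964 had changes of 0.06 and 0.11 and did not pass the test.

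**Figure D3:**
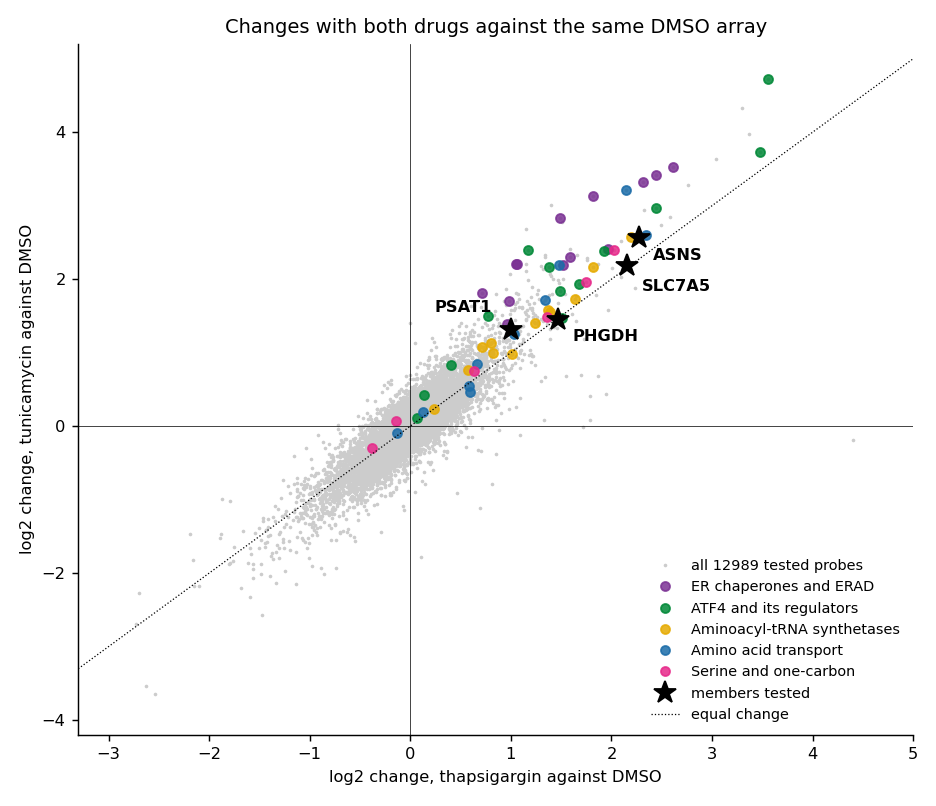
Log2 change with thapsigargin (horizontal) against log2 change with tunicamycin (vertical) for all 12989 tested probes (grey), 5 gene lists (colours) and the 4 expressed genes (stars), with a dotted line of equal change; both axes use the same DMSO array. PHGDH and SLC7A5 lie on the dotted line and ASNS and PSAT1 a little above it, while the ER chaperones lie further above it.

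Genes of protein folding and disposal in the ER gave a contrast in the comparison of the drugs. All 11 probes for ER chaperones and ER-associated degradation that were detected on all 5 arrays rose with each drug. All 11 were also lower with thapsigargin than with tunicamycin, where 5.64% of all tested probes were. A further 2, for DNAJC3 and SEL1L, were below background on the DMSO array. The median log2 difference of this list was -0.97, against -0.16 for the 4 expressed genes, -0.21 for amino acid transport, -0.17 for aminoacyl-tRNA synthetases, -0.39 for ATF4 and its regulators, and 0.0059 for all tested probes. HSPA5 (BiP), the main ER chaperone, rose by 2.31 with thapsigargin and by 3.32 with tunicamycin, CRELD2 by 2.62 and 3.53, and HERPUD1 by 2.45 and 3.42. Whether the lists differ from each other was not tested. With both recovered arrays added, no probe of any list passed in any of the 3 comparisons, and the chaperone list's median difference between the drugs was 0.05 over 12 tested probes.

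**Figure D4:**
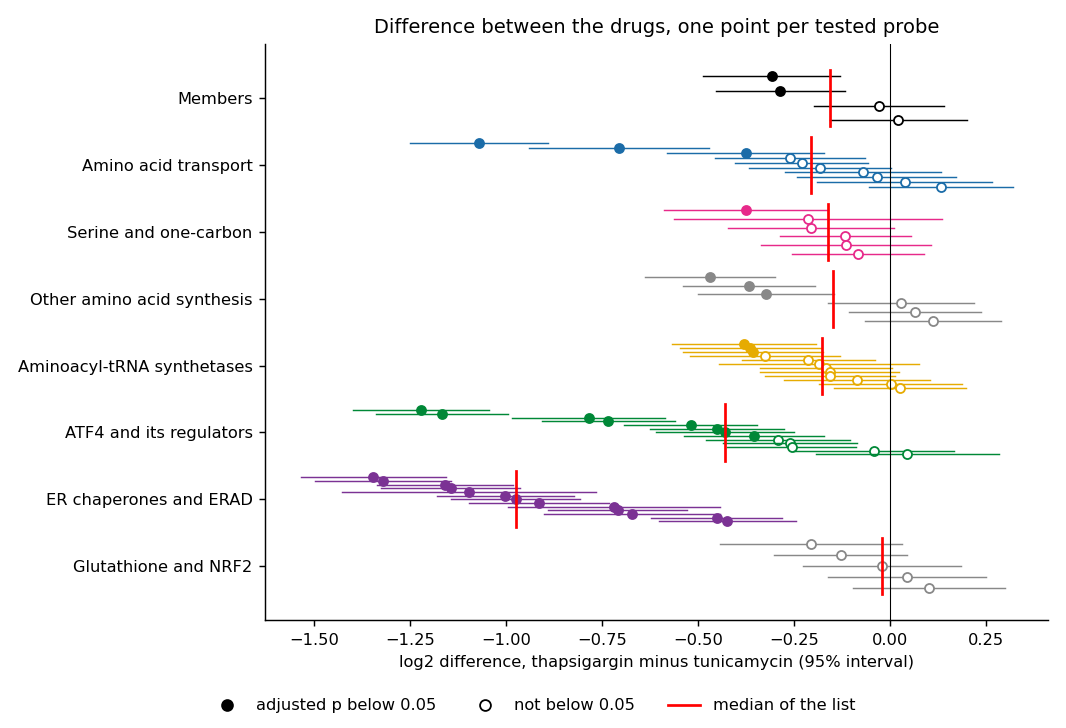
Log2 difference, thapsigargin minus tunicamycin, of each tested probe with its 95% interval, by gene list, with filled points where the limma adjusted p was below 0.05 and a red line at each list's median. The 4 expressed genes lie between -0.31 and 0.02, and the 13 ER chaperone and degradation probes between -1.35 and -0.42.

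SLC7A11 is also a target of NRF2, the oxidative stress factor, so NRF2 and glutathione genes were counted beside it. Of 5 tested probes 1 rose with each drug, where 12.2% of all tested probes rose with thapsigargin and 17.2% with tunicamycin. It was NQO1, a quinone reductase, which rose by 0.75 with thapsigargin and 0.88 with tunicamycin. With normexp 1 probe of the list rose and 1 fell with each drug, and with the recovered DMSO array added 2 rose and 1 fell. The glutathione synthesis genes GCLC and GCLM, with GSR and TXNRD1, did not pass the test, and HMOX1 was below background on all 5 arrays. The list's median log2 change was 0.0043 with thapsigargin and 0.20 with tunicamycin.

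Some markers of the cell line fell with the drugs. Of 6 tested neuroblast marker probes, 2 fell with thapsigargin, where 13.3% of all tested probes did, and 4 with tunicamycin, where 18.8% did. The median log2 change of the 6 was 0.0019 with thapsigargin and -0.31 with tunicamycin, and the list's summed normalised intensity was 19950 on the DMSO array, 17088 and 17069 with thapsigargin, and 14643 and 13915 with tunicamycin. CHGA, a protein of secretory granules, fell by 0.67 and by 1.42 on the log2 scale. Of 9 probes for other cell types 3 were tested. GFAP, of astrocytes, was below background on the DMSO array and at least 1.23-fold higher with tunicamycin. It entered the test only through the treated groups, so no p-value is given for its rise. The call as higher was lost without tunicamycin replicate 2, with normexp and with the trended and robust prior. It was also lost with 7 arrays, with 6 arrays and a replicate block, and where the recovered array alone stood for DMSO. The other two did not pass with either drug. Without thapsigargin replicate 3, 1 neuroblast marker probe fell with thapsigargin. Without tunicamycin replicate 1, or without its replicate 2, the number that fell with tunicamycin was 2. The summed intensity of these 9 probes was 314 on the DMSO array, 295 and 329 with thapsigargin, and 297 and 310 with tunicamycin, and ALB and CD3E were below background throughout. The part of these markers in the rises above was not tested.

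The probe nearest to each expressed gene by pattern was the one with the smallest root mean square difference between log2 profiles, each centred on its mean over the 5 arrays. For ASNS this was SLC6A9 (0.0480), for PSAT1 ATF6 (0.0239), for PHGDH MFAP4 (0.0313) and for SLC7A5 SERPINH1 (0.0651). LARP6 lay nearest to the mean profile of the 4 genes (0.0481). With the recovered DMSO array added, the nearest became WARS1 for ASNS, SLC7A1 for PSAT1 and PPIC for the mean profile, while MFAP4 and SERPINH1 kept their places. With normexp in place of neqc, the nearest became PLPP5 for ASNS, INHBE for PSAT1, SERPINE2 for SLC7A5 and SLC6A9 for the mean profile, and MFAP4 again kept its place.

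Promoters of the expressed genes and of the genes in all lists were searched for 3 motifs, on both strands and with exact letters. These were TGATGNAA, the unfolded protein response element TGACGTGG, and the longer ER stress response element. RefSeq's table matched 4 of the 5 genes by symbol, with no entry for SLC7A11. The first motif was held by 1 of these 4 genes, ASNS, and the other motifs by none of them. TGATGNAA occurred in 3.62% of all 35116 promoters of the same length, TGACGTGG in 0.729% and the ER stress response element in 0.0769%. Genes may have several listed starts, so a share of genes is not the same measure as a share of promoters.

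In the lists, TGATGNAA was held by 1 of 3 serine and one-carbon genes (MTHFD1L) and 1 of 5 other amino acid synthesis genes (GOT1). It was held by 0 of 4 glutathione and NRF2 genes, 0 of 6 neuroblast markers and 0 of 3 markers of other cell types. It was also held by 5 of 9 transport genes, 7 of 10 aminoacyl-tRNA synthetase genes, 3 of 12 genes of ATF4 and its regulators, and 1 of 13 ER chaperone and degradation genes. The ER stress response element was held by 5 of those 13 (CALR, CRELD2, HSP90B1, HSPA5 and XBP1) and by none of the others. TGACGTGG was held by 1 of 9 transport genes (SLC7A6) and 1 of 10 aminoacyl-tRNA synthetase genes (CARS1). The windows around the core are shown for ASNS and for the 5 transport genes, because SLC3A2 pairs with SLC7A5 while differing from it in these letters. Each is read along the strand that carries the core, with the core in capitals.
ASNS, chr7:97872461-97872484, minus strand: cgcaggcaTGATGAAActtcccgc
SLC3A2, chr11:62881728-62881748, minus strand: ggagcTGATGTAAggagtcct
SLC7A1, chr13:29595666-29595689, minus strand: cgcactgcTGATGAAAcctggcgc
SLC1A4, chr2:64989384-64989407, minus strand: gctggagaTGATGCAAacgggagc
SLC1A5, chr19:46784896-46784919, minus strand: gaagtggcTGATGCAAgctgtcca
SLC38A1, chr12:46266505-46266528, minus strand: gacccgaaTGATGAAAagggatca
ASNS, SLC7A1 and SLC38A1 have A at the open position of the core, SLC1A4 and SLC1A5 have C, and SLC3A2 has T. In SLC3A2 and SLC7A1 the core lies after the annotated start, at positions 37 to 44 and 7 to 14. In SLC38A1 it spans the start, at -4 to 3, and in SLC1A4 it reaches the start base, at -7 to 0. In SLC1A5 it lies at -97 to -90. Positions in SLC1A4 and SLC1A5 count from listed starts 2 and 3 of these genes. SLC3A2 and SLC1A4 carry the core on the strand opposite the gene. With the core, ASNS rose by 2.27 with thapsigargin and by 2.56 with tunicamycin, SLC1A4 by 1.34 and 1.71, and SLC7A1 by 1.03 and 1.26. SLC38A1 rose by 0.59 and 0.46, and SLC1A5 by 0.58 and 0.54. SLC3A2 rose by 2.14 and 3.21 at probe ILMN_1679041 and by 1.48 and 2.19 at ILMN_1726456. Without the core in this window, SLC7A5 rose by 2.16 and 2.18, PHGDH by 1.47 and 1.45, and PSAT1 by 1.00 and 1.31. Whether the core bears on these rises was not tested. A match describes these letters and not a bound site.

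**Figure D5:**
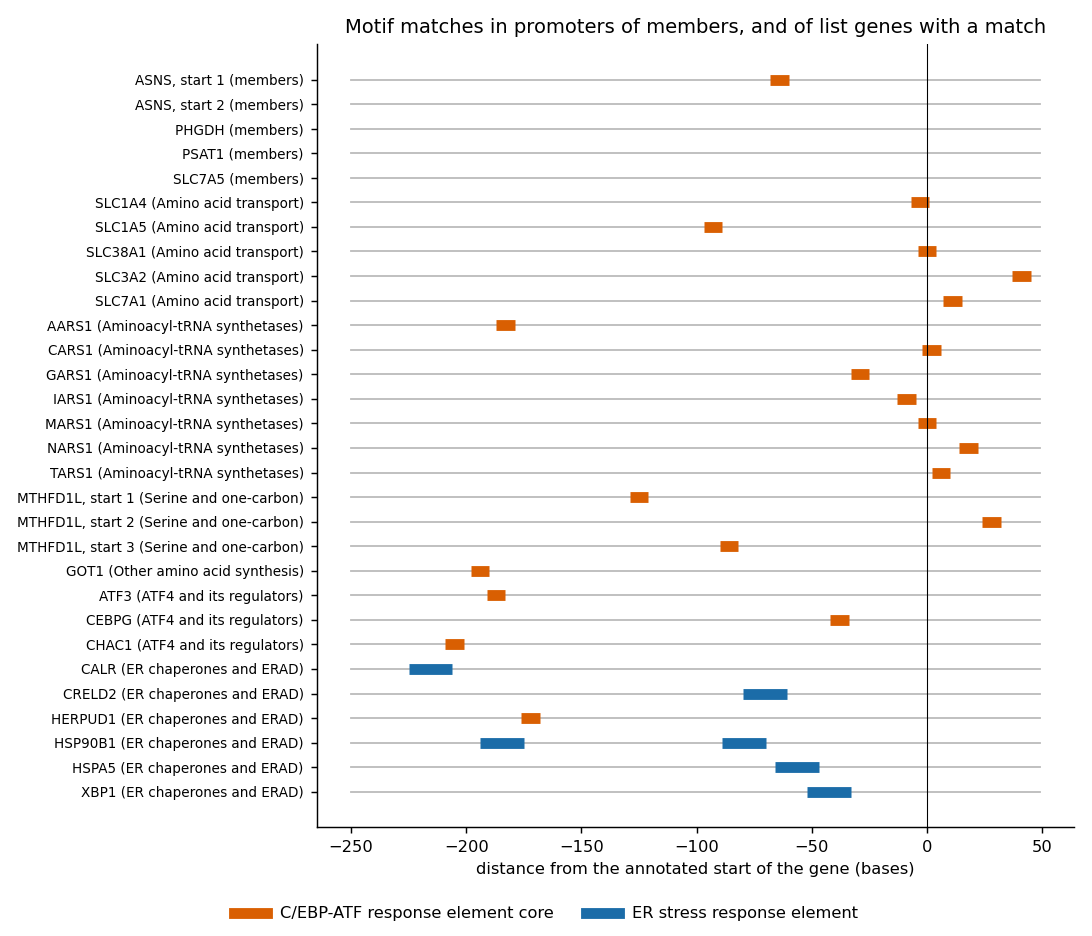
Position of matches to TGATGNAA and the ER stress response element, in bases from the annotated start, for the 4 expressed genes and for list genes with such a match. Matches to TGACGTGG are not drawn. Orange bars mark the C/EBP-ATF response element core and blue bars the ER stress response element; among the 4 expressed genes the only match is in ASNS, at -68 to -61.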

How the data were processed

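Per the file headers, the authors deposited a non-normalized table with a linear intensity and, for each probe, a detection p-value, and a second table of normalized linear intensity whose 9 columns held identical sorted values. The authors' normalization method is not stated in the sources used here. Genes were named from GEO's platform annotation, which gave 1 gene for 19715 of 22184 probes and none for 2469, with symbols updated through RefSeq.

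Columns were compared for independence: DMSO replicate 2 and thapsigargin replicate 2 equalled the mean of the other columns of their group (largest relative deviations 1.52e-07 and 9.76e-08). DMSO replicate 3 held a weight of 0.75 of replicate 1, and tunicamycin replicate 3 weights of 0.5 and 0.25 of replicates 1 and 2, each with 0.25 of a further array whose probe order matched the detection p-values with 0 breaks. Of 108 combinations tried, the next best had a share of 0.274.

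The 5 single arrays, 1 of DMSO and 2 of each drug, were corrected and normalised with neqc (limma 3.58.1, R 4.3.3; offset 16; negative controls inferred from detection p-values). Probes detected on every array of at least 1 group (12989) were fitted with lmFit and eBayes over all groups, two-sided, with Benjamini-Hochberg adjustment at 0.05. The number of arrays limits precision, since DMSO has 1 array and no spread of its own. The code was tested on simulated data. Named genes are the 5 members, all their probes, the nearest probes by pattern, and up to 3 called probes per list with the largest mean absolute log2 change; PSPH, SHMT1, CBS, LARS1, SLC38A1, SLC38A2, SLC7A6, the ATF4 probes and CHGA, GFAP and the glutathione genes were named after their values were seen. Members and lists were chosen with earlier results of these data known. Promoters were searched with Python 3.11.15. The 18 alternatives were normexp (offset 50), no background correction, centring on medians, the authors' normalized table, no filter, a trended and robust prior, leaving out each of the 4 treated arrays, 4 uses of the recovered arrays or all 9 columns, 2 fits with a replicate block, and 2 fits of 4 arrays with DMSO and 1 drug. A lower bound on a fold sets the group's mean against the lowest signal detected on the DMSO array, or the probe's own signal if higher.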

Additional observations from a re-analysis of the deposited data

Results flagged for a closer look

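The change with thapsigargin minus that with tunicamycin passed limma's test on the 5 single arrays, with Benjamini-Hochberg adjustment, for ASNS (-0.29 on the log2 scale), for PSAT1 (-0.31) and for both probes of SLC3A2 (-0.71 and -1.07). ASNS and PSAT1 lost the call without any 1 treated array and changed sign with 7 arrays (0.58 and 0.10). Over all tested probes, 5.64% were lower with thapsigargin than with tunicamycin. In the gene lists, the change was smaller with thapsigargin for 1 of 6 serine and one-carbon probes and 3 of 6 in other amino acid synthesis. It was smaller for 3 of 10 in amino acid transport and 3 of 12 in aminoacyl-tRNA synthetases. It was also smaller for 8 of 13 in ATF4 and its regulators and 13 of 13 in ER chaperones and degradation. Without 1 treated array at a time these counts became 0, 0 to 1, 1 to 2, 0, 4 to 6 and 9 to 12. They include probes that were below background on the DMSO array.

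The array recovered from tunicamycin replicate 3, which was not among the 5 single arrays, lay slightly above the higher of the DMSO arrays for PSAT1 (by 0.067 on the log2 scale) and for SLC7A5 (by 0.035), with no test of either difference.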

How the results depend on the processing

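Across 17 alternatives, the log2 changes with thapsigargin ranged from 2.17 to 2.30 for ASNS, 0.94 to 1.04 for PSAT1, 1.32 to 1.53 for PHGDH and 2.05 to 2.17 for SLC7A5, and those with tunicamycin from 1.71 to 2.57, 0.90 to 1.34, 0.92 to 1.47 and 1.45 to 2.20. All 4 genes passed for both drugs in 16 of the alternatives and 0 passed with 7 arrays, where limma made 5 calls for thapsigargin and 0 for tunicamycin among 12620 probes (2722 and 1975 at an unadjusted p below 0.05). The difference between the drugs was less stable. Against 2 genes called, 0 were called with arrays centred on their medians, with no filter on dim probes, without each treated array in turn (0 to 0, a lone array taken to vary as the other groups do) and with 7 arrays, and 1 when the recovered array replaced DMSO replicate 1 or with all 9 columns. The difference changed sign for PHGDH without thapsigargin replicate 3 (-0.026, against 0.072 without thapsigargin replicate 1), for SLC7A5 with all 9 columns (0.077), and with 7 arrays for ASNS (0.58), PSAT1 (0.10), SLC7A5 (0.65) and SLC3A2 probe ILMN_1726456 (0.056), and the cause was not tested. The 13 ER chaperone and degradation probes that were lower with thapsigargin became 9 to 12 without 1 treated array, 4 with 6 arrays and a replicate block, and 0 of 12 tested with 7 arrays. Over all probes, calls numbered 3323 with thapsigargin, 4681 with tunicamycin and 1340 for the difference of the drugs; they became 5, 0 and 8 with 7 arrays and 8615, 9073 and 5696 with all 9 columns. Those for thapsigargin fell to 2093 without its replicate 3. Those for the difference became 180 to 534 without 1 treated array, 25 with 6 arrays and a replicate block, 2464 with normexp, 2347 with no background correction, 2339 with the authors' table and 2698 with a trended and robust prior. Within the 250 bases before the start, TGATGNAA was held by 3.14% of promoters and TGACGTGG by 0.612%.

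With the replicate number as a block, 6 arrays gave 0 genes called between the drugs and -0.011 for PHGDH, and all 9 columns gave 1 gene called and 0.077 for SLC7A5; the 4 genes stayed past the threshold against DMSO. The block with 6 arrays also ended the calls between the drugs for SLC3A2 (-0.86 at ILMN_1726456 and -1.11 at ILMN_1679041, limma adjusted p of 0.0657 and 0.0725), and with all 9 columns both passed. Among these 6 arrays replicate number 1 was the only number that all groups shared; deviations of its arrays correlated at -0.17, -0.03 and 0.10 between groups. No label says that a number marks a shared culture or day, so the numbers were not treated as pairs.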

Other observations

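Further members of the pathway lists, named after their values were seen, moved with both drugs. SLC1A4 and SLC1A5, which exchange small neutral amino acids such as serine and glutamine, rose by 1.34 and 0.58 with thapsigargin and by 1.71 and 0.54 with tunicamycin on the log2 scale (limma, all adjusted p below the threshold). SLC7A1, an arginine and lysine transporter, rose by 1.03 and 1.26, and SLC43A1, a carrier of large neutral amino acids, by 0.66 and 0.84. CHAC1, which breaks down glutathione, and SESN2, a leucine sensor that restrains mTORC1, were below background on the DMSO array and could be tested only through the treated arrays. CHAC1 was at least 1.80-fold higher with thapsigargin and at least 3.10-fold higher with tunicamycin, and SESN2 at least 3.78-fold and at least 5.16-fold higher. GOT1, the cytosolic aspartate aminotransferase, rose by 0.47 and 0.84. With both recovered arrays added, none of these probes passed the test.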
